A study of Mus musculus with 2 samples.

Results

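The acute-phase and alarmin genes described here are Saa1, Saa2, Saa3, Lcn2, Hp, Il6 and Il33, 7 of the 31053 genes in the deposited counts. They were taken by name, and were chosen because their levels, or the few cells that hold them, stood out in earlier results of the same counts, so the levels, shares of cells and shares of UMIs below are a description and carry no test. The counts come from droplet scRNA-Seq of fibro/adipogenic progenitors (FAPs), the mesenchymal cells of the muscle interstitium, sorted as 7AAD- Lin- Vcam1- Sca1+ cells from limb muscle of C57BL/6 mice 3 weeks of age. One library came from a Bap1f/f control without Cre (Bap1WT) and one from a Prx1-Cre;Bap1f/f littermate (Bap1ΔMPC), in which Cre driven by Prx1 deletes the deubiquitinase gene Bap1 in limb mesenchyme; the mouse number behind each library is not given in the sources used here. With 1 library per genotype no difference has a replicate check, and every interval below covers counting error only.

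Serum amyloid A proteins (Saa1, Saa2, Saa3), haptoglobin (Hp) and lipocalin 2 (Lcn2) are acute-phase proteins, which liver and, for some of them, fat and inflamed connective tissue release when IL-6 and IL-1 family cytokines act through STAT3, C/EBP and NF-κB factors. Hp binds free haemoglobin, and Lcn2 binds bacterial siderophores and so withholds iron. Il6 encodes the cytokine that drives much of this response, and Il33 encodes a nuclear alarmin, released from stromal cells on damage, that signals through the receptor Il1rl1. FAPs are a known source of both cytokines in muscle.

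The 3 serum amyloid genes lie together on chromosome 7 of mm10, with Saa3 at chr7:46711998-46715700 (minus strand), Saa1 at chr7:46740497-46742980 (minus strand) and Saa2 at chr7:46751790-46754313 (plus strand). Lcn2 lies at chr2:32384633-32388252 (minus), Hp at chr8:109575128-109579172 (minus), Il6 at chr5:30013114-30019981 (plus) and Il33 at chr19:29925114-29960718 (plus) in GENCODE annotation of the same build. Saa1 and Saa2 transcripts were 93.9% identical over their whole length and 92.4% identical over the last 300 bases, where 3′ reads fall, so UMIs of these genes may have been split between them or lost. Saa3 was 45.2% identical to Saa1 over the same stretch. The 250 bases before the start site are printed for the 4 genes that were higher together in one library and had an entry, and for Il6, which was not, from the RefSeq table of GRCm38.p6, in which 6 of the 7 genes had an entry and Hp had none. For Lcn2, Saa2 and Saa3 the RefSeq start lies inside the GENCODE interval given above. The Lcn2 window thus falls wholly within that interval, and the Saa2 and Saa3 windows fall in part within theirs. Capitals mark the C/EBP motif TTGCNNAA, searched on both strands, and in Il6 also the NF-κB consensus; the motifs did not overlap.
Saa1, chr7:46742981-46743230, minus strand: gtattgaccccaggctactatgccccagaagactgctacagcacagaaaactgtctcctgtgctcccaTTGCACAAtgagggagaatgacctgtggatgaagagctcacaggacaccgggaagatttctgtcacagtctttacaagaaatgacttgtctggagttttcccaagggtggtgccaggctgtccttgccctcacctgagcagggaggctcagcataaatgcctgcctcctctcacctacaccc
Saa2, chr7:46751583-46751832, plus strand: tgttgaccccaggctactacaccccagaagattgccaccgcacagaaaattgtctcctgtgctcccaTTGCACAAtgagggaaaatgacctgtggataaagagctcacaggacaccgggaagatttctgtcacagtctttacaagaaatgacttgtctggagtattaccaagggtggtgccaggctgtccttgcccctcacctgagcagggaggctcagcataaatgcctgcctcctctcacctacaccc
Saa3, chr7:46715677-46715926, minus strand: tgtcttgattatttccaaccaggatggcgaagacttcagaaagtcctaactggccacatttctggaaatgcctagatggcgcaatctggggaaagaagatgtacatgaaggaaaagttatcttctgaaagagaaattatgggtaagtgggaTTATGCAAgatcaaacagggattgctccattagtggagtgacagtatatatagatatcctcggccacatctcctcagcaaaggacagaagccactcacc
Lcn2, chr2:32387740-32387989, minus strand: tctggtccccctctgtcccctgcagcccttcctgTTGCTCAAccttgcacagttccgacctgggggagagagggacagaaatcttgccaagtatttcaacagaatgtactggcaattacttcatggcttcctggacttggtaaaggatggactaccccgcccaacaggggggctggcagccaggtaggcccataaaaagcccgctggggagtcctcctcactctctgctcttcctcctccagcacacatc
Il6, chr5:30012864-30013113, plus strand: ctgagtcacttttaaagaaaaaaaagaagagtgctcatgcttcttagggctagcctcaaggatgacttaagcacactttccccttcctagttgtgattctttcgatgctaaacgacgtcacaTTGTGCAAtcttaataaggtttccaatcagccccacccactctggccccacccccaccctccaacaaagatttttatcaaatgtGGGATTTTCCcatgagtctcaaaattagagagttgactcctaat

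Each of the 5 windows held 1 match to TTGCNNAA, starting 182 bases before the start site in Saa1, 183 in Saa2, 99 in Saa3, 216 in Lcn2 and 128 in Il6. Of the 6 genes with an entry, 5 had a match in their first window and Il33, not printed, had none there. A further Il33 window held 1 match, 85 bases before its start. Of all 32851 promoter windows of this length, 9.56% held the motif. The NF-κB consensus was found in Il6 alone among the 5, 44 bases before the start, against 3.90% of all windows, and the STAT motif TTCNNNGAA was found in none of them, against 7.02% of all windows. The Saa1 and Saa2 windows were 94.8% identical. A match to a motif is a description of the letters and no measure of binding.

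The library labelled Bap1WT held 4103 cells and 51015705 UMIs, and the one labelled Bap1ΔMPC held 4378 cells and 49540066 UMIs, with medians of 12232 and 11018 UMIs per cell and 5 cell barcodes in common. Dcn was found in over 99.9% of cells of each library and Pdgfra in 93.9% and 84.1%, while Ptprc, the gene for CD45, had no UMI in either. The authors had removed cells high in markers of other muscle cell types, so the absence of Ptprc is no separate check on identity. Bap1 itself was at 17.6 CPM (the gene's UMIs scaled by all UMIs of the library) in the library labelled Bap1WT and 21.6 CPM in the one labelled Bap1ΔMPC, and since 3′ reads need not cover the deleted exons, these counts do not check the labels. Xist was found in 93.5% and 92.4% of cells, although the study's methods name male mice for whole-transcriptome work. Haemoglobin RNA (Hbb-bs), which FAPs do not make, was found in 6.17% and 8.34% of cells and gauges the free RNA that droplets take up, so the UMIs per cell are given below beside shares of cells of that size. Cells with erythroid markers numbered 7 and 11 and those with endothelial markers 7 and 3, too few to gauge shares of the 7 genes.

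Over all cells, 5 of the 7 genes were over 3-fold higher in the library labelled Bap1ΔMPC, and Il6 and Il33 were not. Among the 14729 genes with 20 or more UMIs, 3.15% were over 3-fold higher and 2.12% over 3-fold lower, and since the genes were chosen on these levels nothing is read from their count. The median log2 ratio was 2.43 over the 7 genes and 0.10 over all genes measured. Ranked by that ratio from the highest, Hp was 1st of the 14729 genes, Lcn2 6th, Saa3 14th, Saa2 195th, Saa1 399th, Il6 8687th and Il33 10946th. Genes with 0 UMIs in one library entered this ranking with 3 counts in place of 0, so the first places depend on that floor. Hp, with 2 UMIs in the library labelled Bap1WT, was divided by fewer counts than such genes.

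**Figure D1:**
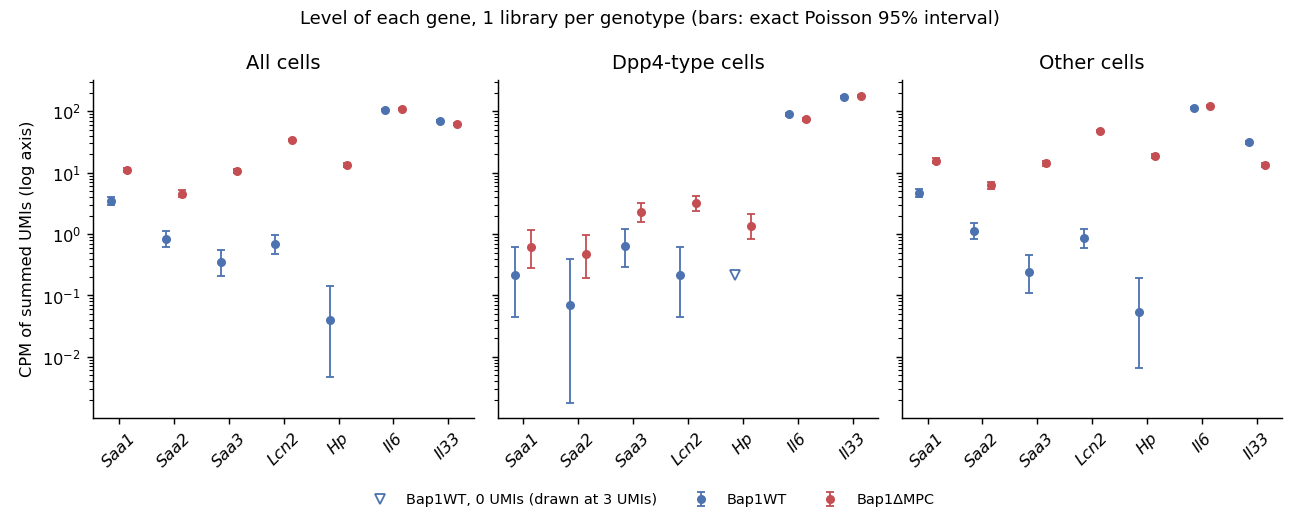
CPM of summed UMIs (log axis) of the 7 genes in the Bap1WT (blue) and Bap1ΔMPC (red) libraries, over all cells, Dpp4-type cells and other cells, with exact Poisson 95% intervals and 1 library per genotype. Saa1, Saa2, Saa3, Lcn2 and Hp sit higher in red in all cells, from 3.26-fold for Saa1 to 347-fold for Hp, while Il6 and Il33 lie close together except for Il33 in other cells, at 31.6 and 13.4 CPM.

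Saa1 had 175 UMIs (3.43 CPM, interval 2.94 to 3.98) in the library labelled Bap1WT and 554 UMIs (11.2 CPM, 10.3 to 12.2) in the one labelled Bap1ΔMPC, a ratio of 3.26 (2.75 to 3.89). Saa2, its close copy, had 43 UMIs (0.843 CPM) and 225 UMIs (4.54 CPM), a ratio of 5.39 (3.87 to 7.65). Saa3, the form made outside the liver, had 18 UMIs (0.353 CPM), no more than 1 per cell, and 532 UMIs (10.7 CPM), a ratio of 30.4 (19.1 to 51.8). The 3 intervals of the ratio lie above 1, but each ratio was lower without the cells with the most UMIs. Without the 1 cell with the most UMIs in each library the ratio was 2.93 for Saa1, 4.17 for Saa2 and 19.2 for Saa3, and without the 10 cells with the most it was 2.38 for Saa1, no longer over 3-fold, 3.09 for Saa2 and 9.40 for Saa3. As a mean over cells of UMIs per 10,000, the log2 ratio of Saa1 was 1.34, which did not pass 3-fold. In the library labelled Bap1ΔMPC 1 cell held 96 of the 554 Saa1 UMIs and 67 of the 225 Saa2 UMIs, and another held 215 of the 532 Saa3 UMIs. The highest cell of the library labelled Bap1WT had 14 UMIs of Saa1 and 4 of Saa2.

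Of the 5, Lcn2 was found in the most cells of the library labelled Bap1ΔMPC, while Saa1 was in the one labelled Bap1WT. Lcn2 had 35 UMIs in 18 cells (0.686 CPM, 0.478 to 0.954) in the library labelled Bap1WT and 1704 UMIs in 294 cells (34.4 CPM, 32.8 to 36.1) in the one labelled Bap1ΔMPC, a ratio of 50.1 (35.9 to 72.2). Cells with at least 10 Lcn2 UMIs numbered 1 and 47. Without the 10 cells with the most UMIs 8 and 1200 UMIs were left, and since 10 cells are over 50% of the 18 cells of the library labelled Bap1WT, no ratio is read from these. Hp had 2 UMIs in 2 cells (0.0392 CPM, 0.00475 to 0.142) and 673 UMIs in 108 cells (13.6 CPM, 12.6 to 14.7), a ratio of 347 whose interval ran from 95.6 to 2867. Of these 108 cells, 24 had 5 or more UMIs, and 1 cell had 170.

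Il6 was close in both libraries, with 5459 UMIs (107 CPM, 104 to 110) and 5370 UMIs (108 CPM, 106 to 111), a log2 ratio of 0.02 (-0.04 to 0.07) that was -0.08 with TMM scaling. It was found in 29.98% and 29.0% of cells, and in 19.9% and 20.8% after each cell was thinned to 5000 UMIs, which left out 120 and 210 shallower cells. Il33 had 3554 UMIs (69.7 CPM, 67.4 to 71.99) and 3076 UMIs (62.1 CPM, 59.9 to 64.3), a log2 ratio of -0.17 (-0.24 to -0.10). The share of cells with an Il33 UMI was 34.9% and 22.2%, and 21.4% and 16.0% after thinning. For Il6 and Il33 the levels of the libraries thus lay within 1.12-fold of each other.

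The UMIs of the 5 sparse genes were packed in few cells. In the library labelled Bap1ΔMPC, 50% of a gene's UMIs were reached with 2 cells for Saa3, 3 for Saa2, 6 for Hp, 9 for Saa1 and 27 for Lcn2, against 198 for Il6 and 193 for Il33. In the library labelled Bap1WT the corresponding numbers were 180 for Il6 and 291 for Il33. The 5% of cells with the most UMIs held 53.9% and 52.9% of Il6 UMIs, 40.4% and 54.1% of Il33 UMIs, and 95.6% of Lcn2 UMIs in the library labelled Bap1ΔMPC, beside 8.42% and 8.98% of the UMIs of all genes held by the 5% of cells with the highest totals. For genes found in under 5% of cells, which were Saa1, Saa2, Saa3 and Hp in each library and Lcn2 in the one labelled Bap1WT, that share is 100% by construction. In the library labelled Bap1ΔMPC, the 10 cells with the most UMIs of each of these genes had totals between 6789 and 22101 UMIs, below the library maximum of 22418.

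**Figure D2:**
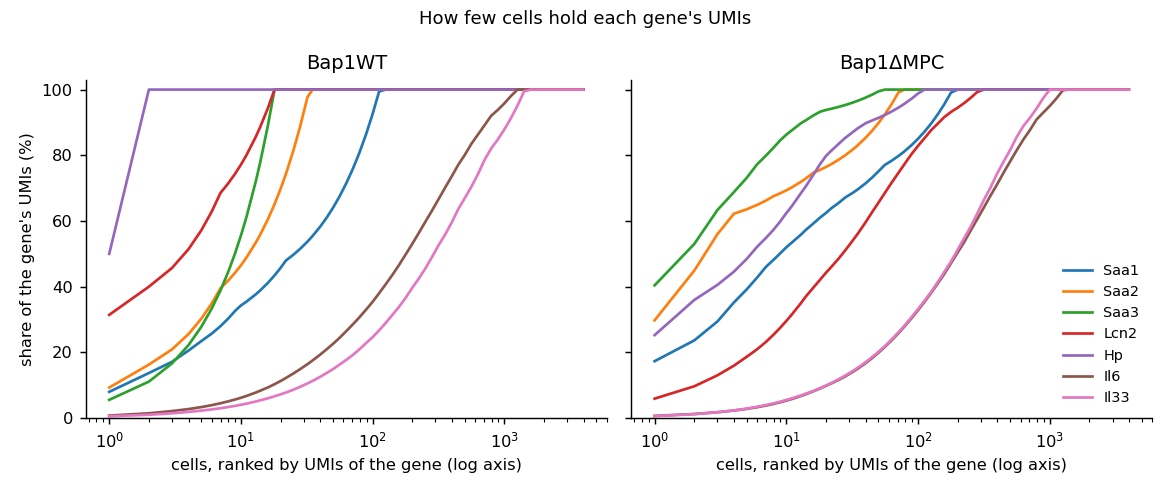
Cumulative share of each gene's UMIs (%) over cells ranked by their UMIs of that gene (log axis), in the Bap1WT (left) and Bap1ΔMPC (right) libraries. The right panel shows Saa3, Saa2, Hp and Saa1 reaching 50% within 9 cells and Lcn2 within 27, while Il6 and Il33 need 198 and 193; the steep left curves of Hp, Saa3 and Lcn2 rest on 2, 18 and 35 UMIs.

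Dpp4+ FAPs and Cxcl14+ FAPs are the FAP subpopulations that the study describes. Cells with at least 25 UMIs per 10,000 of Pi16, Sema3c, Anxa3 and Efemp1 together, markers of the first, are called Dpp4-type here and all others "other cells". Dpp4-type cells numbered 1050 (25.6%) and 1251 (28.6%), of which 95 and 172 had a score below 30, while 115 and 165 other cells had a score of 20 or more. Dpp4, which the score did not use, was at 298 CPM in Dpp4-type cells and 56.5 CPM in other cells of the library labelled Bap1WT and at 268 and 39.5 CPM in the one labelled Bap1ΔMPC. Cxcl14 was at 10.1 and 317 CPM, and at 63.2 and 956 CPM.

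In the library labelled Bap1ΔMPC the sparse genes were lower in Dpp4-type cells. In other cells of the library labelled Bap1ΔMPC the level was higher than in Dpp4-type cells by 25.7-fold for Saa1, 13.2-fold for Saa2, 6.22-fold for Saa3, 14.97-fold for Lcn2 and 13.9-fold for Hp, so 5 of 7 genes were over 3-fold lower in Dpp4-type cells and Il33 was over 3-fold higher. Over all 13680 genes measured 7.49% were over 3-fold lower in Dpp4-type cells and 2.19% higher. Saa3 was found in 0.959% (0.497 to 1.67) of Dpp4-type cells and 1.31% (0.943 to 1.77) of other cells. In other cells 1 cell held 215 of the 498 Saa3 UMIs. The shares in the same order were 0.639% and 5.60% for Saa1, 0.480% and 2.14% for Saa2, 1.36% and 8.86% for Lcn2, and 1.28% and 2.94% for Hp. Of the 5 genes with enough UMIs in the library labelled Bap1WT, Saa1 (21.9-fold), Saa2 (16.1-fold) and Lcn2 (4.08-fold) were also lower in Dpp4-type cells and Il33 higher, beside 7.06% and 3.01% of 13582 genes. Saa3 there had 9 UMIs in each class, at 0.638 CPM (0.292 to 1.21) in Dpp4-type cells and 0.244 CPM (0.112 to 0.463) in other cells, too few for a ratio and in the opposite order.

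Between the libraries, the 5 genes that were higher over all cells were so in other cells, with ratios of 3.36 for Saa1, 5.51 for Saa2, 58.7 for Saa3, 54.9 for Lcn2 and 346 for Hp. In other cells 3.68% of 14271 genes were over 3-fold higher and 2.18% lower. In Dpp4-type cells 5 genes had 20 or more UMIs and 3 were over 3-fold higher, Saa3 with 9 and 34 UMIs (3.61-fold, 1.70 to 8.56), Lcn2 with 3 and 47 UMIs (14.98-fold, 4.82 to 75.2) and Hp with 0 and 20 UMIs, at least 6.37-fold higher against a floor of 3 counts. Among 12517 genes there, 1.89% were over 3-fold higher and 1.63% lower. Of the 34 Saa3 UMIs, 23 were in 1 cell, and without it and its counterpart too few UMIs were left for a ratio. Saa1, with 3 and 9 UMIs, and Saa2, with 1 and 7, were too low to compare.

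Il33 followed the Dpp4-type score in both libraries. It was at 169 CPM (162 to 176) in Dpp4-type cells and 31.6 CPM (29.8 to 33.5) in other cells of the library labelled Bap1WT, 5.35-fold, and at 177 CPM (170 to 184) and 13.4 CPM (12.2 to 14.6) in the one labelled Bap1ΔMPC, 13.2-fold. Over bins of the score its level went from 24.9 CPM below 5 to 290 CPM at 100 or more in the library labelled Bap1WT, and from 7.53 to 357 CPM in the one labelled Bap1ΔMPC. Just outside and just inside the limit of 25, in scores from 20 to 30, it was at 59.4 and 59.7 CPM in the first and at 41.5 and 85.3 CPM in the second. Between the libraries Il33 was close in Dpp4-type cells, with a log2 ratio of 0.06 (-0.02 to 0.14) that was -0.01 with TMM scaling, and lower in other cells of the library labelled Bap1ΔMPC, with 1166 and 465 UMIs and a log2 ratio of -1.24 (-1.40 to -1.08), or 2.36-fold, which did not pass 3-fold. Its share of other cells was 23.7% and 8.63%, and 12.8% and 5.23% after thinning. The size of this difference moved with the limit on the score, from a log2 ratio of -1.48 at 15 to -0.60 at 40.

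**Figure D3:**
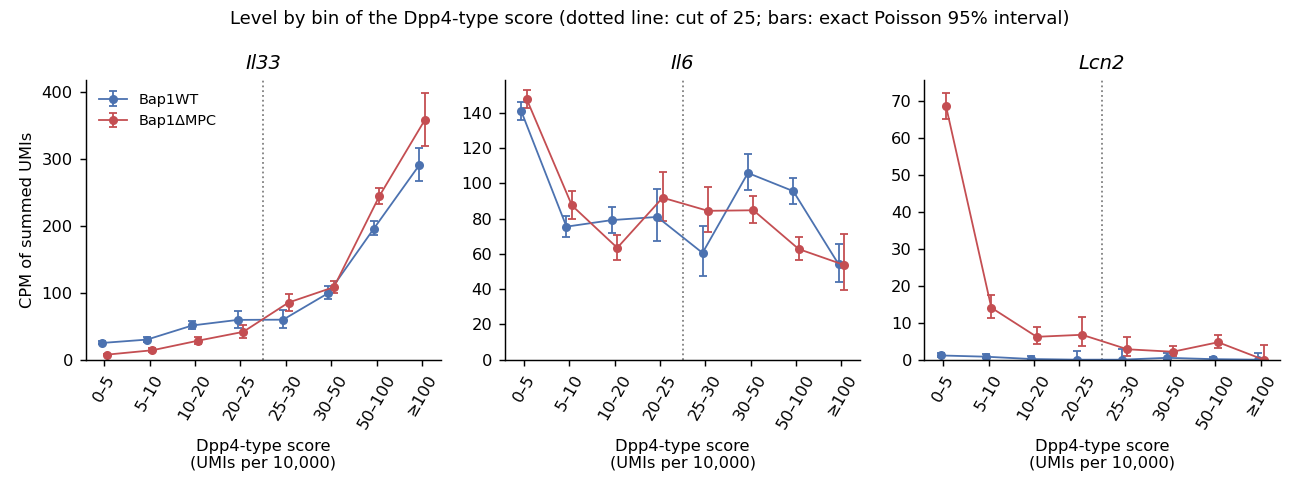
CPM of summed UMIs of Il33, Il6 and Lcn2 by bin of the Dpp4-type score (UMIs per 10,000 of Pi16, Sema3c, Anxa3 and Efemp1) in the Bap1WT (blue) and Bap1ΔMPC (red) libraries, with exact Poisson 95% intervals and the limit of 25 dotted. Il33 climbs with the score to 290 and 357 CPM, Il6 is highest in the lowest bin at 141 and 148 CPM, and Lcn2 drops from 68.7 CPM to 0 UMIs in the red library.

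Il6 showed the opposite order with a smaller span. It was at 114 CPM in other cells and 89.8 CPM in Dpp4-type cells of the library labelled Bap1WT (1.27-fold), and at 123 and 73.6 CPM in the one labelled Bap1ΔMPC (1.67-fold). Its log2 ratio between the libraries was 0.12 (0.05 to 0.18) in other cells and -0.29 (-0.40 to -0.17) in Dpp4-type cells, and neither passed 3-fold; with TMM scaling, which moved the log2 ratios of other cells by -0.11, these were 0.00 and -0.36.

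Cells were also grouped by markers, with at least 2 genes of a set and at least 3 of their UMIs; these groups overlap, and their sizes differed between the libraries. Tendon markers (Tnmd, Scx, Chad, Cilp2, Thbs4) summed to 176 CPM in the library labelled Bap1WT and 433 CPM in the one labelled Bap1ΔMPC, with no marker at 0, and the group held 132 and 338 cells. Adipocyte markers summed to 8.25 and 84.4 CPM, with Cidec and Lep of 8 at 0 in the library labelled Bap1WT, and that group held 7 and 96 cells. Immune markers summed to 8.08 and 15.4 CPM in these already filtered cells, with the defining Ptprc and Adgre1 at 0. In the library labelled Bap1ΔMPC they summed to 186 CPM (60 UMIs) in the 24 cells with 5 or more Hp UMIs. The sums were 49.0, 12.8, 3.86 and 0 CPM in cells with 5 or more UMIs of Lcn2, Saa3, Saa1 and Saa2. Of the immune markers Lyz2 had 21 UMIs in the cell with 170 Hp UMIs and 32 in a cell with 26 Hp UMIs, so these 2 cells held most of the 60. No cell of the 24 was in the immune group. Neutrophil markers, of cells that are rich in Lcn2, summed to 0.647 and 1.01 CPM with Retnlg at 0 and no cell in the group.

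Over 50% of Lcn2 UMIs were in the tendon-marker cells of each library. These were 3.22% of cells and held 20 of its 35 UMIs in the library labelled Bap1WT, at 11.3 CPM (6.88 to 17.4) against 0.305 CPM in the rest, with 11 UMIs in 1 cell. The 338 cells of the library labelled Bap1ΔMPC, 7.72% of it, held 889 of 1704 Lcn2 UMIs (52.2%), at 205 CPM (192 to 219) against 18.0 CPM in the rest, and 32.2% of them had a UMI against 4.58%. A group of 112 cells with Hmcn1, Meox1 and Etv4 had Lcn2 at a level near that, 166 CPM (144 to 189), with a UMI in 29.5% of cells. The 579 such cells of the library labelled Bap1WT held 15 of its 35 UMIs, at 2.07 CPM. These 15 UMIs were in 4 cells, and 11 of them were in the same 1 cell as in the tendon-marker group. With the tendon-marker cells left out of both libraries, Lcn2 had 15 and 815 UMIs, a ratio of 59.2. Saa1 and Saa2 had 43.3% and 47.1% of their UMIs in the same 338 cells, among them the 1 cell with 96 and 67, and without the group the ratios were 1.99 and 3.09.

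Several overlapping groups held much of Hp. The 96 adipocyte-marker cells of the library labelled Bap1ΔMPC, 2.19% of its cells, held 482 of 673 Hp UMIs (71.6%), at 388 CPM (354 to 424) against 3.95 CPM in the rest. Only 28 of the 96 had an Hp UMI, and 2 of them held 170 and 72. The 652 cells with Spon1, Cldn2, Hsd11b2 and Angpt4 held 406 Hp UMIs (60.3%), at 51.2 CPM against 6.42 CPM in the rest, and 108 cells with cycling markers held 248 (36.8%), at 166 CPM, and both include the cell with 170. Lcn2 was at 186 CPM in the adipocyte-marker cells, Il6 at 208 CPM, and Il33 had 1 UMI there (0.805 CPM). Without the adipocyte-marker cells Hp had 2 and 191 UMIs, still 101-fold higher in the library labelled Bap1ΔMPC.

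Saa3 had 374 of its 532 UMIs (70.3%) in the 652 cells of the library labelled Bap1ΔMPC that carried Spon1, Cldn2, Hsd11b2 and Angpt4, a set found in 83 cells of the one labelled Bap1WT; 215 of these UMIs were in 1 cell, and 17 of the 652 cells had a Saa3 UMI. The same 652 cells held 29.2% of Il6 UMIs, at 198 CPM against 91.4 CPM in the rest, and Il6 was at 234 CPM (206 to 265) in the 83 cells. Il6 was also high in 291 cells with Fmo2, Angpt2 and Stc1 of the library labelled Bap1WT, at 260 CPM (243 to 277), and in the 27 such cells of the one labelled Bap1ΔMPC, at 194 CPM (152 to 245). Il33 reached 315 CPM (266 to 370) in 38 cells with Krt7 and Plet1, of which the library labelled Bap1WT had 1. With all cells of any list of other cell types left out, 3600 and 3751 cells remained. In these, Saa3 (16 and 441 UMIs, 29.3-fold), Lcn2 (10 and 722 UMIs, 76.9-fold) and Hp (1 and 150 UMIs, 160-fold) were over 3-fold higher. Saa1 (142 and 267 UMIs, 2.00-fold) and Saa2 (38 and 69 UMIs, 1.93-fold) were not. The part of group sizes in the library differences was not tested beyond these values.

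**Figure D4:**
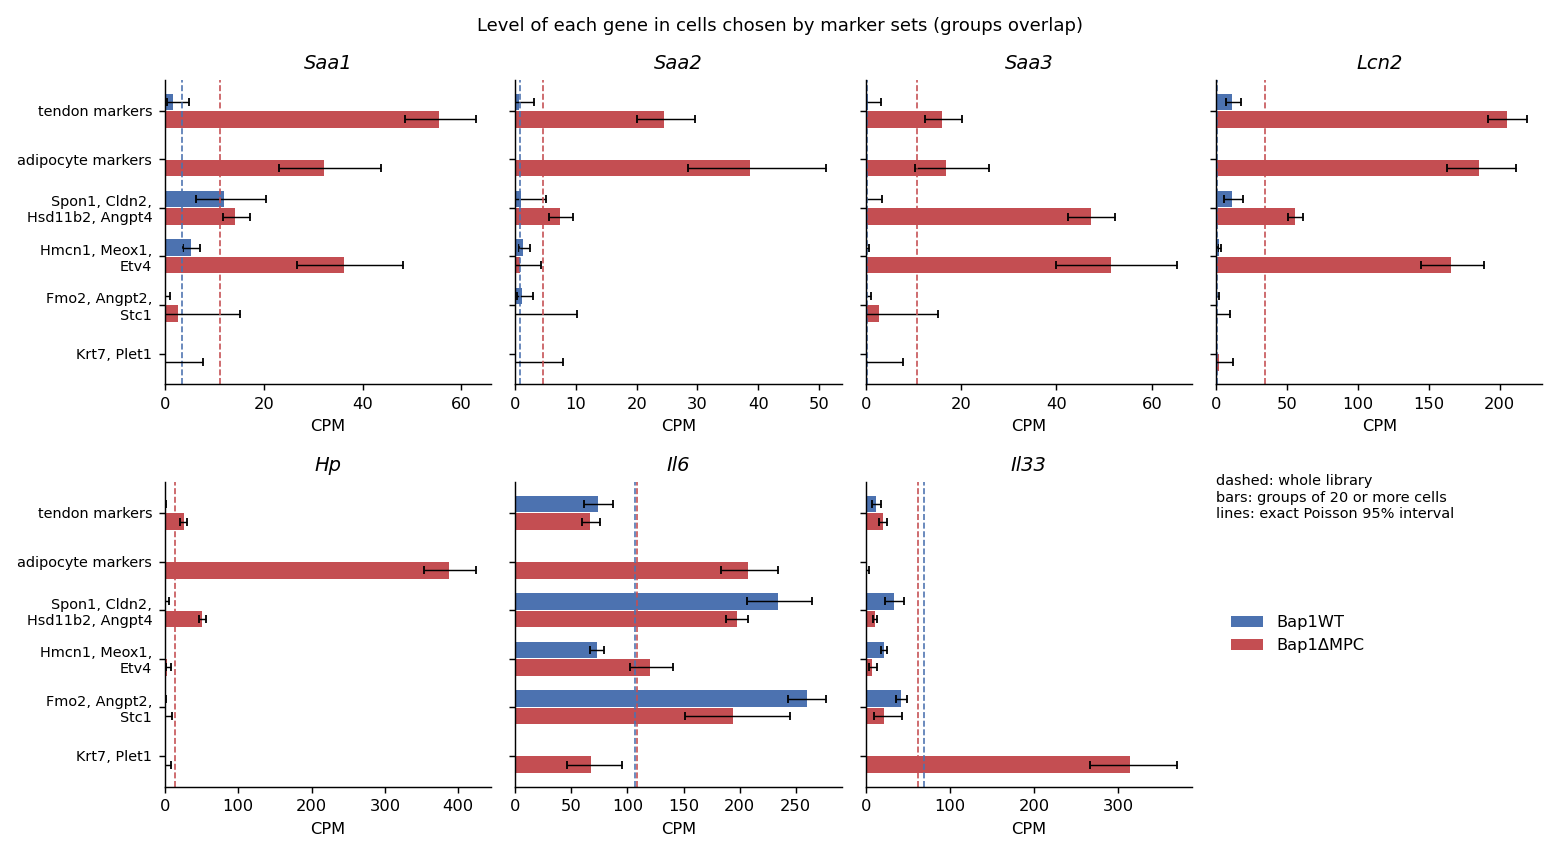
CPM of each gene (bars, axis from 0, exact Poisson 95% intervals) in groups of at least 20 cells chosen by marker sets, in the Bap1WT (blue) and Bap1ΔMPC (red) libraries, with the level of the whole library dashed. Lcn2 stands at 205 CPM in tendon-marker cells, Hp at 388 CPM in adipocyte-marker cells and Il33 at 315 CPM in Krt7 and Plet1 cells of the Bap1ΔMPC library; Il6 is above the library level in the Spon1 and Fmo2 sets of both libraries.

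The acute-phase genes tended to share cells. In the library labelled Bap1ΔMPC, Saa1 was found in 30.1% (19.9 to 42.0) of the 73 cells with Saa2 against 3.74% of the rest, and since these genes share sequence the figure may include misassigned UMIs. Lcn2 was found in 22.2% (14.8 to 31.2) of the 108 cells with Hp against 6.32% of the rest, in 24.7% of cells with Saa2 and in 14.2% of cells with Saa1. Il6 was found in 52.8% (38.6 to 66.7) of the 53 cells with Saa3 against 28.7%, and in 41.7% of cells with Hp, but in 27.6% of cells with Lcn2 against 29.1%. Il33 was less common among cells with Lcn2, at 10.2% against 23.1%, and with Saa1, at 9.84% against 22.7%. Of the 294 cells with Lcn2, 277 were other cells, and of the 183 with Saa1, 175 were. Il33 was found in 8.63% of all other cells and in 56.1% of Dpp4-type cells. The lower shares of Il33 were thus not separated from the difference between the classes. Cells with Hp had a median of 13399 UMIs against 10960 in the rest, and those with Saa1 11798 against 10971, so depth moved with some of these shares, and its part was not tested. Among the cells with the most UMIs, 1 had 170 Hp and 38 Lcn2 UMIs, another 101 Lcn2 and 72 Hp UMIs, and 1 more had 67 Saa3 and 57 Lcn2 UMIs. None of the 18 cells with Lcn2 in the library labelled Bap1WT had a UMI of Saa1, Saa2, Saa3 or Hp, with an upper limit of 18.5% for each. Saa1, the most common of these, was in 2.77% of the remaining cells, so 18 cells are too few to compare with the other library. In the library labelled Bap1WT, Saa1 was found in 21.2% (8.98 to 38.9) of the 33 cells with Saa2 against 2.60% of the rest.

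**Figure D5:**
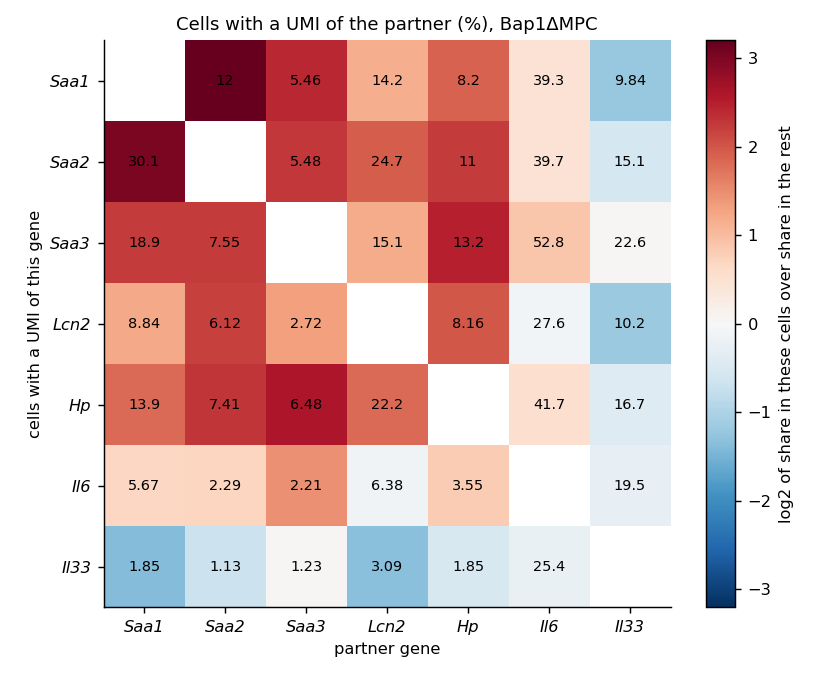
Share of cells (%, printed) with a UMI of the partner gene (columns) among cells with a UMI of the row gene, in the Bap1ΔMPC library, colored by the log2 of that share over the share in the remaining cells. The block of Saa1, Saa2, Saa3, Lcn2 and Hp is red, up to 30.1% for Saa1 in cells with Saa2, and Il33 is blue against Saa1 and Lcn2. Most cells with Saa1 or Lcn2 are other cells, 8.63% of which have an Il33 UMI.

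For Il6 and Il33, found in over 5% of cells of both libraries, the most alike genes over cells were taken among 9479 genes by the lower of the Pearson r values within the 4103 and 4378 cells, as a description. Il6 was most like Tnfaip6 (0.36 and 0.29), Cxcl1 (0.28 and 0.29), Nfkbia (0.27 and 0.27), Irf1 (0.27 and 0.29) and Nfkbiz (0.31 and 0.26). Il33 was most like Pi16 (0.49 and 0.55), Dact2 (0.47 and 0.51), Efhd1 (0.44 and 0.47), Efemp1 (0.44 and 0.43) and Anxa3 (0.42 and 0.45), 3 of which are in the Dpp4-type score. The r between Il6 and Il33 was -0.02 and -0.07. Cells of a library share its depth range and its free RNA.

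Among the receptors and signal carriers of these genes, Il6ra, the ligand-binding receptor of IL-6, had 926 and 2762 UMIs (18.2 and 55.8 CPM), and its log2 ratio of 1.62 (1.51 to 1.73) passed 3-fold, but did not with TMM scaling, at 1.52. Its log2 ratio was 1.48 in Dpp4-type cells and 1.71 in other cells. Of the 22 genes of the IL-6 list with enough UMIs, Il6ra alone passed 3-fold; with TMM scaling none was higher and 1 was lower, Lif (189 and 62 UMIs), whose log2 ratio went from -1.57 to -1.66. The co-receptor Il6st was at 210 and 172 CPM (-0.29), Stat3 at 136 and 194 CPM (0.51), its inhibitor target Socs3 at 773 and 925 CPM (0.26), and the factors Cebpb at 389 and 356 CPM (-0.13) and Cebpd at 1224 and 1296 CPM (0.08). For the IL-33 receptor, Il1rl1 was at 1.63 and 0.868 CPM (-0.91, 83 and 43 UMIs) and Il1rap at 14.4 and 12.4 CPM (-0.21). In Dpp4-type cells Il1rl1 had 44 and 12 UMIs, a log2 ratio of -1.94 (-3.00 to -0.99) that passed 3-fold, beside 1.63% of genes lower there. Its log2 ratio was -0.25 in other cells, with 39 and 31 UMIs. For Il1rap the log2 ratio was -0.82 in Dpp4-type cells and 0.09 in other cells. The Lcn2 receptor Slc22a17 was at 21.5 and 25.5 CPM (0.25), the haptoglobin receptor Cd163 had 4 UMIs in each library, and of the receptors that bind serum amyloid A, Fpr2 had 36 and 27 UMIs, Tlr2 was at 13.8 and 10.2 CPM (-0.44) and Scarb1 at 4.65 and 4.46 CPM (-0.06).

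Over the 6 lists of related genes, 7 of 134 genes measured were over 3-fold higher and 3 lower, beside 3.15% and 2.12% of all genes, and 5 and 4 with TMM scaling. Of 19 other acute-phase genes, 3 were over 3-fold higher, Ahsg (1 and 107 UMIs), Lrg1 (3 and 27 UMIs) and A2m (4 and 20 UMIs), and 1 was lower, Serpina3c (965 and 311 UMIs, log2 ratio -1.59), with a median log2 ratio of 0.19. The list was not split into genes that rise and genes that fall in the acute-phase response, so no direction of that response is read from these counts. In Dpp4-type cells 13 genes of the list were measured, with 0 higher, 1 lower and a median of -0.73. In other cells 19 were, with 4 higher, 0 lower and a median of 0.37. Over all genes 1.89% were higher and 1.63% lower in Dpp4-type cells, and 3.68% and 2.18% in other cells. The complement gene C3, at 194 and 548 CPM, did not pass 3-fold over all cells and did in other cells, with a log2 ratio of 2.29. Of 19 genes of other alarmins and the IL-1 family, S100b was higher (856 and 3154 UMIs, 1.92) and Il18r1 lower (43 and 1 UMIs), with a median of 0.11. In the NF-κB list of 28 genes, Csf2 (5 and 15 UMIs) was higher, though not with TMM scaling (1.53), and Traf1 (69 and 21 UMIs) lower, with a median of 0.15. The median of the NF-κB list was -0.12 in Dpp4-type cells and 0.27 in other cells, and that of the alarmin list -0.05 and 0.23. Of the 15 genes of receptors and iron handling, Cd36 (13 and 97 UMIs), a marker of fat cells as well, was higher. None of 32 genes that rise when tissue is dissociated passed 3-fold, with a median of 0.16, and the part of dissociation in the level of Il6, which both libraries share, was not tested.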

How the data were processed

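Per the labels and methods, sorted FAPs were profiled with the 10x 3′ v3.1 kit, the authors aligned reads to mm10 with Cell Ranger 3.1.0, filtered cells and doublets in Seurat 3.2.1 and removed non-FAPs, and deposited raw UMI counts for every gene in every cell. Filter thresholds are not given in the sources used here. No further cell or doublet filter was applied. Counts were summed per library or class of cells and scaled to the total UMIs (CPM). Genes entered a ratio with 20 or more UMIs in both libraries together, 3 counts stood in for 0 as a floor, and 3-fold, as in the methods, was the limit. Intervals are exact at 95% (Poisson for CPM, Clopper-Pearson for shares, conditional binomial for ratios) and cover counting error only. Thinning drew 5000 UMIs per cell without replacement. The 7 genes, the gene lists and the Dpp4-type score were chosen with earlier results of these data known. Genes named beside the 7 were receptors and signal carriers, those of each list past 3-fold with 100 or more UMIs, and the 5 most alike; Lrg1, A2m, Csf2, Traf1, Il18r1, Lif and C3 fall outside this rule and were named after their values were seen. TMM factors came from edgeR 4.0.16 and ran no test. Ratios and intervals were tested on simulated sums with counting error only. The genes checked had more UMIs in the library labelled Bap1WT than Saa2, Saa3, Lcn2 and Hp had there. No packing of UMIs in few cells was simulated, so the simulation does not show how the intervals perform for such genes. Software was scipy 1.17.1 under Python 3.11.15, and R 4.3.3. Bulk RNA-Seq and other assays were not analysed here.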

Additional observations from a re-analysis of the deposited data

Results flagged for a closer look

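For Il33 the ratio between the libraries had opposite signs in the 2 classes of cells, with a log2 ratio of 0.06 in Dpp4-type cells, whose interval included 0, and -1.24 in other cells, so that the first exceeded the second by 1.30. For Il6 the log2 ratio was -0.29 in Dpp4-type cells and 0.12 in other cells, a difference of -0.40. With 1 library per genotype, neither difference between the classes was tested.
With TMM scaling the log2 ratios were -0.01 and -1.35 for Il33 and -0.36 and 0.0049 for Il6 in the same order, so the opposite signs of Il33 were lost and those of Il6 rested on a value next to 0.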

How the results depend on the processing

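No paired analysis was possible because the groups compared hold 1 library apiece, without any test between them. The count of genes over 3-fold higher over all cells was 5 of 7 and stayed between 4 and 5 under TMM scaling, a 2-fold limit, a minimum of 100 UMIs, a mean over cells, and, chosen after seeing the data, without the 1 or the 10 highest cells or without adipocyte-marker or tendon-marker cells. It was 3 without cells of other cell type lists, and 1 of 3 measurable genes (Lcn2) without the 5% of cells with the most UMIs of each gene, since sparse genes then had no UMI left. In other cells the count of 5 became 3 without cells of other cell type lists, 3 without the 10 highest cells (chosen after seeing the data) and 2, with Lcn2 higher and Il33 lower, without the highest 5%. Without the 10 highest cells, Saa3, Lcn2 and Hp had 8, 8 and 0 UMIs left in the library labelled Bap1WT over all cells. They had 0, 6 and 0 left in its other cells, and both counts for this setting include the 3 genes. In Dpp4-type cells the count of 3 became 0 with a minimum of 100 UMIs, 0 without the highest 5% or 10 cells, 1 without the highest cell and 1 with a score limit of 40, as fewer genes had enough UMIs. Counts between Dpp4-type and other cells, 4 and 6, did not move under the score limits, the shorter score or a 2-fold limit. They were not recounted without the cells with the most UMIs. The 10 list genes past 3-fold became 21 at 2-fold and 5 with a minimum of 100 UMIs. No ratio that passed 3-fold changed sign under any alternative. Depth limits Saa1 and Saa2 in Dpp4-type cells and Hp and Saa3 in the library labelled Bap1WT to a few UMIs.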
